A study of Arabidopsis thaliana with 4 samples.

Results

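Glutamate receptor-like (GLR) genes were followed in Arabidopsis thaliana leaves through 7 probe sets, of 16319 in the table, that the array's annotation pairs with exactly 1 gene whose symbol is GLR followed by a digit. They cover 7 of the 20 GLR loci of the genome. These are GLR1.4 of clade 1, GLR2.7, GLR2.8 and GLR2.9 of clade 2, and GLR3.3, GLR3.5 and GLR3.6 of clade 3. The other 13 loci were not analysed here through a probe set of their own. The plants were 5 weeks old and grown in short days, and their roots were drenched with probenazole (PBZ) at 0.5 mM. Leaf RNA was collected 72 h later and, for comparison, before the drench. PBZ activates plant defence, and the submitters applied it to raise the salicylic acid that plants make themselves. Rosette leaves 5 to 8 were taken, with 2 biological replicates and 2 arrays for each time. The labels name no mutant, transgene or ecotype, and the 4 samples hold no leaves kept without PBZ for 72 h, so PBZ and the passing of 72 h cannot be told apart.

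GLR proteins are plant relatives of the ionotropic glutamate receptors of animal neurons. Amino acids or small peptides bind outside the membrane, and the channel then passes cations, calcium among them, into the cell. In leaves the family is known for calcium signals in immunity, for electrical signals that travel from wounds, and for the control of stomata.

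The array medians were 32.5 and 27.1 after PBZ against 19.2 and 27.6 before PBZ, and the authors' scaling between arrays is not known. The median log2 change of the 12239 probe sets bright enough to be tested was 0.37, and each change below stands against that shift. Of the leaf cell markers with a probe set, neither passed the test: the log2 change was 0.44 ± 0.60 for FAMA, a guard cell factor, and -0.49 ± 0.42 for SWEET11, a sugar transporter of the phloem (SE, limma adjusted p = 0.779 and 0.615). FAMA read higher on each array after PBZ, without overlap, which was so for 36.1% of all tested probe sets. SWEET11 read 1118.3 and 1342.5 after PBZ, against 2008.7 and 1472.7 before PBZ, also without overlap. The share of all tested probe sets that read lower in this way is not given here, so that order is not weighed. With array medians made equal the log2 changes were 0.08 for FAMA and -0.86 for SWEET11. The defining markers of mesophyll, epidermis and xylem were not analysed here. Changes of these 2 genes between groups do not check the leaf label, which was taken as given. In leaf RNA a change in the share of a cell type and a change in RNA per cell cannot be told apart.

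GLR1.4, GLR2.7 and GLR2.8 rose after PBZ, while the 3 clade 3 genes did not pass the test and GLR2.9 was too dim to be tested. Of the 6 tested members, 3 passed as higher and 0 as lower (limma, 2-sided, adjusted p under 0.05), beside 5.34% and 0.245% of all tested probe sets. The members were chosen with earlier results of these data known, so this contrast may be partly built in and is no test of the family. In the 3 members that passed, both arrays after PBZ lay above both before PBZ, which was so for 36.1% of all tested probe sets. The 3 rises were 9.80-fold for GLR1.4, 4.85-fold for GLR2.7 and 5.92-fold for GLR2.8, as ratios of geometric means. With array medians made equal, the log2 changes were 2.93, 1.91 and 2.2 in the same order. At that scaling GLR2.8 did not pass (limma adjusted p = 0.0544). Between 1.85% and 4.81% of all tested probe sets had a larger change than these 3.

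**Figure D1:**
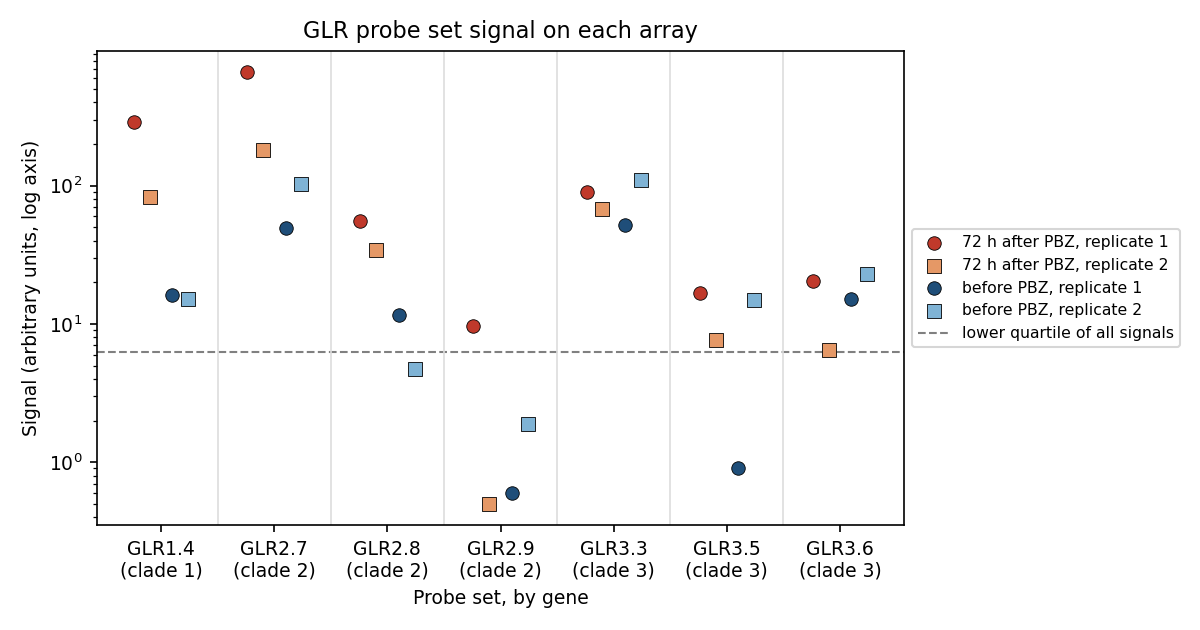
Signal of the 7 GLR probe sets (log axis, arbitrary units) on each of the 4 arrays, with 1 point for each array and the lower quartile of all signals, 6.30, as a dashed line. For GLR1.4, GLR2.7 and GLR2.8 both arrays after PBZ sit above both before PBZ, and for the other members the groups overlap.

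GLR1.4 (AT3G07520, chromosome 3) is a clade 1 channel that methionine opens when it is expressed in frog oocytes. Its signal was 287.7 and 82.7 after PBZ, against 16.3 and 15.2 before PBZ. The groups were far apart, the arrays before PBZ were nearly equal, and the arrays after PBZ differed from each other by 3.48 times. The mean was 185 ± 145 after PBZ and 15.8 ± 0.778 before PBZ (SD, n = 2 each), and the fitted log2 change was 3.29 ± 0.61 (SE, limma adjusted p = 0.000505), with a 95% interval from 2.06 to 4.53. On its own arrays GLR1.4 stood at the 87.6th and 71.1st percentile of all probe sets after PBZ, against the 46.8th and 39.2nd before PBZ. Without after replicate 1 the change was 2.39 and did not pass (adjusted p = 0.109), and an error model that ignores intensity also ended the call (adjusted p = 0.0848).

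The genes of clade 2 include 3 that lie side by side on chromosome 2 in the TAIR10.1 annotation, in the order GLR2.9, GLR2.8 and GLR2.7. In Arabidopsis these 3 genes together contribute to the calcium influx that follows the perception of microbial patterns. Of the 6 other genes within 3 places of the cluster, none was analysed here through a probe set of its own. Each of the 3 members has its own probe set, and whether the transcript of a neighbour also binds to it was not tested.

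GLR2.7 (AT2G29120) had a signal of 661.1 and 180.8 after PBZ, against 49.7 and 102.1 before PBZ. The groups did not overlap, but the lower array after PBZ and the higher array before PBZ were close. The mean was 421 ± 340 after PBZ and 75.9 ± 37.1 before PBZ (SD, n = 2 each). The fitted log2 change was 2.28 ± 0.62 (SE, limma adjusted p = 0.0217), with a 95% interval from 1.02 to 3.54. GLR2.7 stood at the 94.9th and 83.4th percentile of its arrays after PBZ, against the 69.5th and 75.9th before PBZ. The call ended without after replicate 1 (log2 change 1.34, adjusted p = 0.666), without before replicate 1 (1.76, adjusted p = 0.299), with no intensity trend (adjusted p = 0.253) and with no filter on dim probe sets (adjusted p = 0.0625).

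GLR2.8 (AT2G29110) was dimmer, with a signal of 55.4 and 34.5 after PBZ against 11.6 and 4.7 before PBZ. Both arrays after PBZ were above both before PBZ, and before replicate 2 was under 6.30, the floor set at the lower quartile of all signals, below which folds are unreliable. With signals under that floor set to it, the rise was 5.11-fold. The mean was 45.0 ± 14.8 after PBZ and 8.15 ± 4.88 before PBZ (SD, n = 2 each). The fitted log2 change was 2.57 ± 0.71 (SE, limma adjusted p = 0.0261), with a 95% interval from 1.11 to 4.02. This call was the least stable of the 3, since with array medians made equal (adjusted p = 0.0544) and after quantile normalization (adjusted p = 0.0533) it lay just outside the threshold. It also ended without after replicate 1 (adjusted p = 0.453), after replicate 2 (0.0868) or before replicate 2 (0.0803), with no intensity trend (0.129) and with no filter on dim probe sets (0.146).

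GLR2.9 (AT2G29100), the third gene of the cluster, had a signal of 9.7 and 0.5 after PBZ, against 0.6 and 1.9 before PBZ. After replicate 1 alone was above the floor of 6.30, and the groups overlapped. No fold is given, because the probe set was in the dimmest 0.25 of the table and was left out of the test. GLR2.2 and GLR2.3 of clade 2 share 1 probe set, which the rule leaves out, and its signal of 0.6 and 4.7 after PBZ and of 0.4 and 0.6 before PBZ was under the floor on all 4 arrays.

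**Figure D2:**
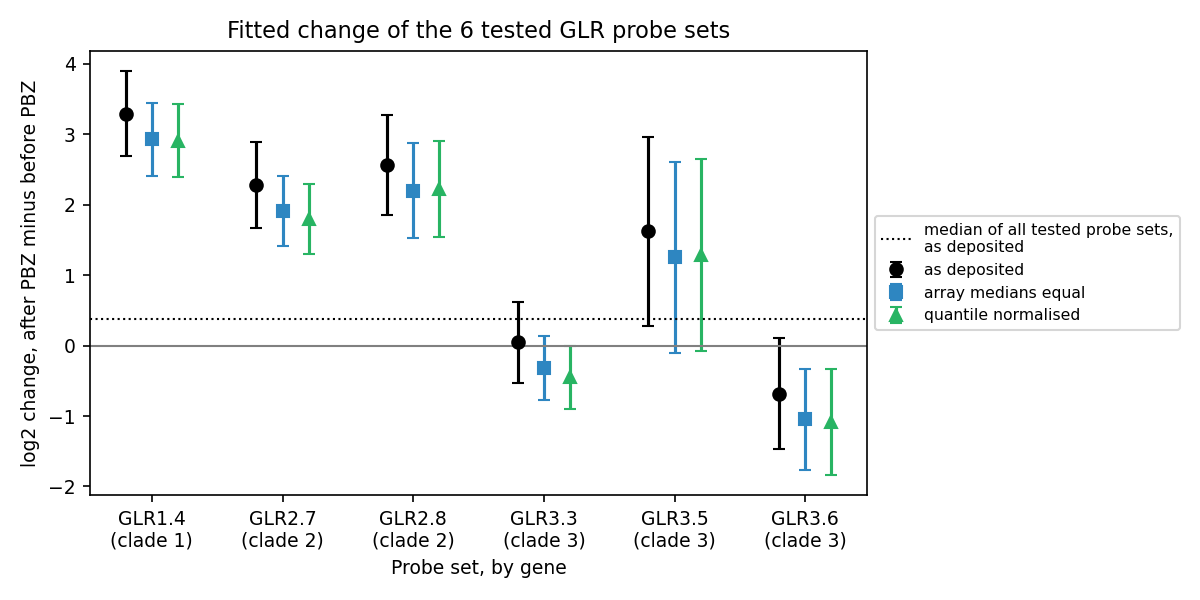
Fitted log2 change of the 6 tested GLR probe sets, after PBZ minus before PBZ, with its SE, on the deposited values, with array medians made equal and after quantile normalization. GLR1.4, GLR2.7 and GLR2.8 lie at 1.80 or above under all 3 scalings, while GLR3.3 lies at 0.05, -0.32 and -0.45.

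Clade 3 holds the channels known for long-distance electrical signals after wounding, in which GLR3.3 and GLR3.6 both take part in Arabidopsis. GLR3.3 (AT1G42540), found in the phloem, was well above the floor on every array. Its signal was 90.0 and 67.3 after PBZ, against 51.7 and 110.0 before PBZ. Both arrays after PBZ lay between those before PBZ. The log2 change was 0.05 ± 0.58 (SE, limma adjusted p = 0.984), with a 95% interval from -1.13 to 1.22, and its sign turned with the scaling (-0.32 with array medians made equal). The interval holds changes of over 2-fold in either direction, so this design does not show that GLR3.3 was unaffected.

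GLR3.6 (AT3G51480), found in cells that border the xylem, had a signal of 20.6 and 6.5 after PBZ, against 15.1 and 22.8 before PBZ. The groups overlapped, with after replicate 2 the lowest array. The log2 change was -0.68 ± 0.79 (SE, limma adjusted p = 0.731), with a 95% interval from -2.29 to 0.93, and without after replicate 2 it was 0.15.

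GLR3.5 (AT2G32390), a channel that acts in guard cells and also has forms sent to organelles, had a signal of 16.7 and 7.6 after PBZ, against 0.9 and 14.9 before PBZ. One dim array before PBZ set the fitted change of 1.62 ± 1.34 (SE, limma adjusted p = 0.601), which was -0.40 without before replicate 1 and 0.22 with signals under the floor set to it. GLR3.5 also passed the filter on dim probe sets only through the arrays after PBZ, since its geometric mean before PBZ was 3.66, under the filter's limit of 4.86. The 3 members that rose had geometric means above that limit before PBZ too, at 15.7 for GLR1.4, 71.2 for GLR2.7 and 7.38 for GLR2.8. For GLR2.8 this rests on before replicate 1 (11.6), since before replicate 2 (4.7) was under the limit.

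**Figure D3:**
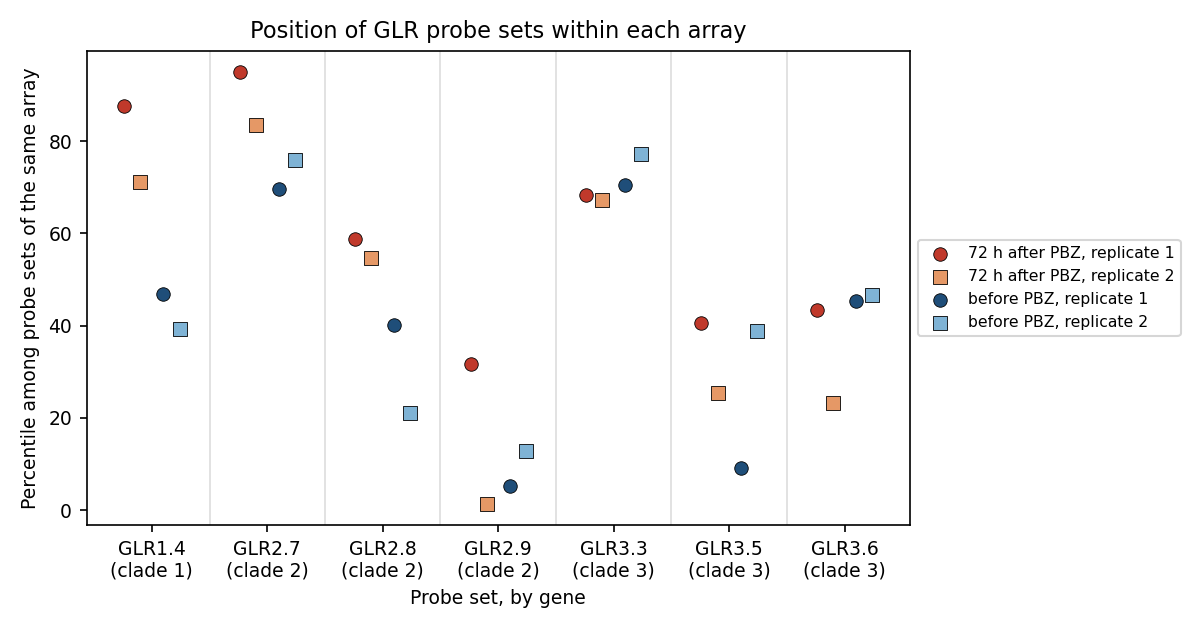
Percentile of each GLR probe set among all 16319 probe sets of the same array, a measure that does not depend on how arrays are scaled. GLR1.4 stands at 87.6 and 71.1 after PBZ against 46.8 and 39.2 before PBZ, and GLR3.3 at 68.4 and 67.3 after PBZ against 70.4 and 77.1 before PBZ.

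A log2 difference between members on the same array does not change when all its signals are multiplied by the same factor. Differences between arrays in background, or that vary with intensity, are not removed. With that limit, the members that rose were also set against GLR3.3, the clade 3 member that was well above the floor throughout. This comparison was chosen after the data were seen. The 3 members were picked for their rise on these same arrays, and GLR3.3 had a log2 change of 0.05. The shifts below therefore largely restate the fitted changes and are no separate support for them. The log2 difference GLR2.7 minus GLR3.3 was 2.88 and 1.43 after PBZ, against -0.06 and -0.11 before PBZ. For GLR1.4 minus GLR3.3 it was 1.68 and 0.30 after PBZ, against -1.67 and -2.86 before PBZ. For GLR2.8 minus GLR3.3 it was -0.70 and -0.96 after PBZ, against -2.16 and -4.55 before PBZ. The lowest of these rests on before replicate 2 of GLR2.8, which was under the floor. In all 3 pairs the groups did not overlap, and the differences moved by 2.23, 3.25 and 2.52 on the log2 scale. How often other pairs of probe sets separate in this way was not worked out. With an array left out the shift ranged from 1.51 to 2.96 for GLR2.7, from 2.56 to 3.94 for GLR1.4 and from 1.32 to 3.72 for GLR2.8. An exact 2-sided permutation test of 2 arrays against 2 cannot go below p = 0.333, so these shifts are given as values. GLR3.5 and GLR3.6 were not compared in this way, and whether the clades differ in response was not tested.

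The neighbouring genes GLR2.7 and GLR2.8 could not be ranked by their rise. The log2 difference GLR2.8 minus GLR2.7 was -3.58 and -2.39 after PBZ, against -2.10 and -4.44 before PBZ. The groups overlapped. For GLR1.4 minus GLR2.7 it was -1.20 and -1.13 after PBZ, against -1.61 and -2.75 before PBZ, without overlap. That difference moved by 1.01, and by 0.44 to 1.58 with an array left out. How often other pairs of probe sets separate in this way was not worked out, so GLR1.4 and GLR2.7 are not ranked either.

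The array of after replicate 1 was the highest for every member that rose, and none of the 3 calls held without it. In 7 of 7 GLR probe sets after replicate 1 read above after replicate 2, beside 55.7% of all tested probe sets. In 5 of 7 before replicate 1 read below before replicate 2, beside 77.7% of all tested probe sets. The actin control probe sets, whose 3' over 5' signal rises as RNA or cRNA gets shorter, had a ratio that was 64.8 and 22.6 on the arrays after PBZ, against 26.5 and 22.4 before PBZ. The same ratio was 4.99 and 3.95 after PBZ against 2.13 and 4.87 before PBZ for GAPDH. For ubiquitin it was 3.29 and 2.72 after PBZ against 2.78 and 3.41 before PBZ, so actin alone of the 3 controls set after replicate 1 far apart. The part of RNA quality in these results was not tested.

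**Figure D4:**
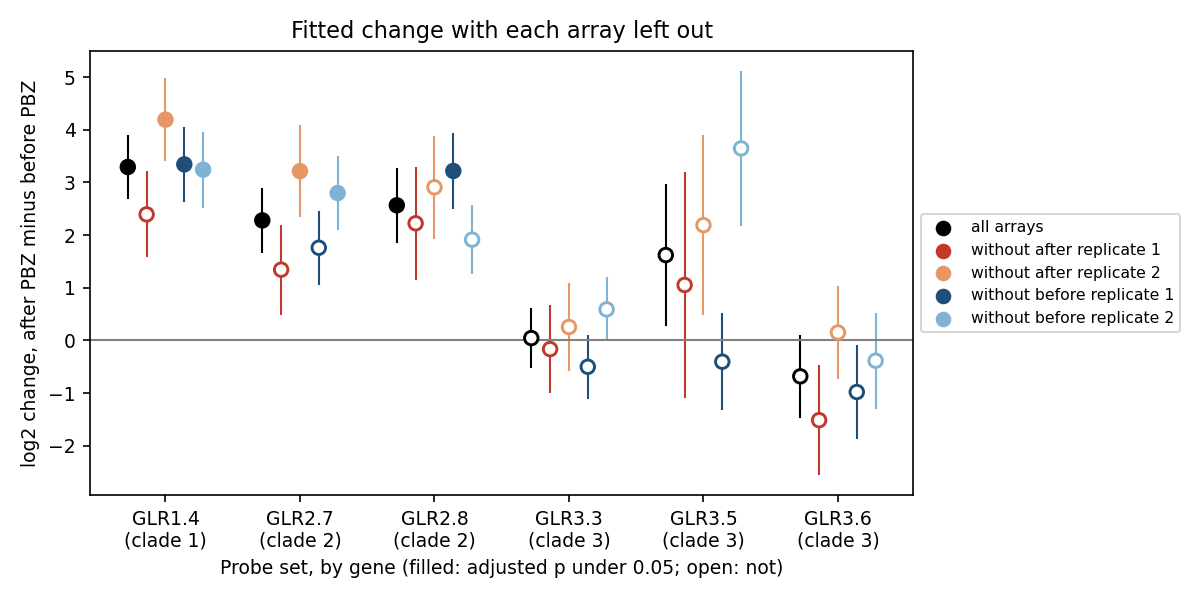
Fitted log2 change of the 6 tested GLR probe sets with its SE, with all arrays and with each array left out, filled where the adjusted p is under 0.05. GLR1.4 lies between 2.39 and 4.19, GLR2.7 between 1.34 and 3.21 and GLR2.8 between 1.91 and 3.22, and all 3 are open without after replicate 1.

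Around the channels, 7 lists of genes were drawn up: other calcium channels, cornichon receptors that sort GLR proteins, calcium pumps and exchangers, calcium-dependent kinases, calmodulin-like calcium sensors, RBOH oxidases, and enzymes of glutamate synthesis and use. The cornichon entries could not be matched to the reference by symbol and were not looked up. Of the others, 5 lists had no member paired with a probe set of its own here and give no result. The calmodulin-like list had 5 tested members, of which 0 passed (limma), beside 5.34% of all tested probe sets called higher and 0.245% lower. At an unadjusted p under 0.05 it was 0 of 5, beside 16.9% of all tested probe sets, and so few members say little. The list had a median log2 change of 0.38 beside 0.37 for all tested probe sets. CML41, a sensor at plasmodesmata in immunity, read 41.7 and 24 after PBZ, against 16.8 and 17.5 before PBZ. Its arrays did not overlap, but the log2 change of 0.88 ± 0.63 did not pass (SE, limma adjusted p = 0.527). CML38, a sensor that wounding and low oxygen are known to raise, read 0.4 and 14 after PBZ and 4.2 and 26.7 before PBZ, which overlap (log2 change -2.16 ± 1.63, limma adjusted p = 0.554). CML42, CML30 and CML23 had log2 changes of 0.47, 0.38 and 0.37, close to the median of all probe sets. Like CML41, CML42 and CML30 read higher on each array after PBZ without overlap, which was so for 36.1% of all tested probe sets.

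The genes whose pattern was most like that of each risen member were sought among 6815 other tested probe sets of 1 gene, by the Euclidean distance between log2 profiles over the 4 arrays after each profile's mean was taken out. Nearest to GLR1.4 were AT4G38560 (distance 0.26), AT3G12910 (0.45) and CRT1b (0.50), a calreticulin that binds calcium in the endoplasmic reticulum. CRT1b read 2929 and 1336 after PBZ, against 238.5 and 204.0 before PBZ. Nearest to GLR2.7 were AT4G12010 (0.26), AT1G62860 (0.32) and OASA2 (0.38), annotated as an O-acetylserine (thiol) lyase, an enzyme of cysteine synthesis. Nearest to GLR2.8 were AT3G09960 (0.12), AT2G41250 (0.36) and AT4G02550 (0.41). Such likeness is common over 4 arrays: the profile correlated at r above 0.95 with 3.87% of candidates for GLR1.4, 5.84% for GLR2.7 and 2.54% for GLR2.8. Of the 9 genes named, AT3G12910, AT1G62860, AT3G09960 and AT4G38560 read below the floor of 6.30 on each of the 2 arrays before PBZ. Their profiles are poorly measured there. The geometric means before PBZ of AT3G12910, AT1G62860 and AT3G09960 were also under the filter's limit of 4.86. Those genes were candidates only through their arrays after PBZ, so their likeness to a risen member was partly built in. AT3G12910, AT1G62860, OASA2 and AT3G09960 did not pass the test themselves (limma adjusted p from 0.0930 to 0.366). These are descriptions of 4 shared arrays, with no test.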

How the data were processed

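Per the labels' protocols, cRNA made from total leaf RNA carried biotin and followed the standard Affymetrix procedure. The submitters' processing notes name GCOS, with version and scaling not given in the sources used. What the authors deposited is a linear 1-colour intensity for each probe set, and it was not rescaled. After 64 control rows were dropped, 9685 of 16319 probe sets had 1 gene in the platform's annotation. Names were matched to TAIR10.1 loci, which were used for names and gene order only. Signals were taken as log2, with 2 values of 0 set to 0.1, and probe sets in the lowest 0.25 by mean were not tested. The groups were compared over the other 12239 by limma 3.58.1 (R 4.3.3), using lmFit and eBayes with an intensity trend (2 residual and 27.2 prior degrees of freedom), and 2-sided p-values were adjusted by Benjamini-Hochberg at a threshold of 0.05. The fit was run on simulated data with independent normal noise and equally scaled arrays. That run does not test how the fit copes with the array differences seen here. Only 2 arrays per group limit the precision.

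The members and lists were chosen with earlier results of these data known. Genes named were all GLR probe sets, list members that passed or had the smallest p, the cluster's neighbours, and the 3 nearest profiles of each member called. The other calmodulin-like genes were named after their values were seen. Of 109 list entries, 6 did not match their locus in the reference and were left out, among them all 5 cornichon receptors. Alternatives changed the scaling, the filter, the pseudocount, the block, the error model and the arrays. A search for promoter motifs was not run, and promoter and protein sequences were not used here.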

Additional observations from a re-analysis of the deposited data

How the results depend on the processing

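The rises of GLR1.4, GLR2.7 and GLR2.8 kept their direction under every alternative in which they were fitted, and with the lowest 0.5 of probe sets left out GLR2.8 and GLR3.5 and GLR3.6 were not among those tested. With no intensity trend none of the 3 passed, at log2 changes of 3.29, 2.28 and 2.57. With no filter on dim probe sets GLR2.7 (2.28) and GLR2.8 (2.57) did not pass, nor GLR2.8 with array medians made equal (2.2) or after quantile normalization (2.22). With an array left out the log2 change ranged from 2.39 to 4.19 for GLR1.4, 1.34 to 3.21 for GLR2.7 and 1.91 to 3.22 for GLR2.8. GLR3.3 turned to -0.32 with array medians made equal and -0.45 after quantile normalization, and ranged from -0.50 to 0.59 with an array left out, GLR3.5 from -0.40 to 3.65 and GLR3.6 from -1.51 to 0.15. Over all tested probe sets, 653 were higher and 30 lower. Quantile normalization gave 546 and 278, equal medians 604 and 179, no intensity trend 157 and 8, no dim filter 447 and 15, and the lowest 0.5 left out 735 and 48. With an array left out, the counts ranged from 217 to 1136 higher and from 12 to 38 lower. With the replicate number as a block, 543 and 29 passed, and the 3 GLR rises still passed (limma adjusted p = 0.000289, 0.0253 and 0.0479). The labels give no shared plant or batch for a number, and the deviations of same-numbered arrays correlated at -0.06 across probe sets, which are not independent. Selection by GLR locus in place of symbol gave 7 probe sets too. The cause of these shifts was not tested. Signals under 6.30 limit GLR2.9, GLR3.5 and GLR2.8.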
